A study of Rattus norvegicus with 8 samples.

Results

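Adrenergic receptors are the cell-surface proteins through which noradrenaline and adrenaline act, and their transcripts were followed here in the developing rat pineal gland. The receptors were chosen by gene symbol from a list of 5: Adrb1, Adra1a, Adra1b, Adra1d and Adra2a. Of these, 4 were found, each as 1 transcript among 16932 transcripts of 16462 gene symbols, and Adra2a was not analysed here. Adrb1, Adra1b and Adra1a reached 1 FPKM in at least 2 libraries and were among the 9960 transcripts tested. FPKM counts fragments for each kilobase of a transcript, relative to the mapped fragments of its library, and is thus a level per length. Levels of different genes can be set side by side only as far as their annotated lengths are right.

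Glands came from Sprague-Dawley rats that were fetuses of embryonic day 21 (E21) or pups and young adults aged 5, 20 or 40 days after birth (P5, P20, P40), which makes 4 ages. They were taken at mid-day (zeitgeber time 7) or at mid-night (zeitgeber time 19) of a cycle with 14 h of light and 10 h of dark, and no genotype or drug differed between groups. There was 1 library for each age and time, 8 in all, each from polyadenylated RNA of a pool of animals. Mid-day pools held 13, 17, 13 and 3 animals in order of age, and mid-night pools 15, 19, 10 and 3. Means and standard deviations (SD) given for an age are over its mid-day and mid-night libraries, so they also hold any difference between day and night.

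In the adult pineal gland, sympathetic nerve fibres from the superior cervical ganglion release noradrenaline at night, and this signal drives melatonin synthesis. The beta-1 receptor acts through the G protein Gs and adenylyl cyclase to raise cyclic AMP. Alpha-1 receptors act through Gq, phospholipase C, calcium and protein kinase C, and in pinealocytes this arm strengthens the cyclic AMP response. Alpha-2 receptors couple to Gi and generally restrain adenylyl cyclase.

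Adrb1, which encodes the beta-1 receptor, rose between the fetal and the young adult gland. In the E21 libraries it measured 10.9 FPKM (mid-day) and 9.12 FPKM (mid-night), and in those of P5 18.6 and 18.7 FPKM. The P20 libraries gave 19.4 and 29.0 FPKM, and the P40 libraries 26.7 and 41.3 FPKM. Both P40 libraries lay above both E21 and both P5 libraries, whereas the P20 and P40 libraries overlapped.

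The mean of Adrb1 was 10.0 ± 1.24 FPKM at E21, 18.7 ± 0.0983 FPKM at P5, 24.2 ± 6.79 FPKM at P20 and 34.0 ± 10.4 FPKM at P40 (SD, n = 2 libraries each). The P40 mean was 3.40 times the E21 mean, 2.45 times at mid-day and 4.53 times at mid-night. On the log2(FPKM + 1) scale, on which all further changes are given and which understates changes of low transcripts, P40 exceeded E21 by 1.64 ± 0.24 (SE, limma, adjusted p = 0.00147). The median change of all tested transcripts was -0.18, and 4.41% of them had a higher value than Adrb1. The call was made in all 17 alternative settings, with adjusted p from 0.000939 to 0.0320. The change itself ran from 1.33 to 1.95 over these settings, but many of them cannot move it. Filters, forms of the test, age as the only term and leaving out a P5 or P20 library keep it at 1.64. These p-values rest on the spread between pooled libraries left after age and time of day, and with pooled glands fewer cells of a type cannot be told apart from less RNA per cell.

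No single step in age passed the test for Adrb1. From E21 to P5 its change was 0.84 ± 0.24 (SE, limma, adjusted p = 0.0526), with a P5 mean 1.87 times the E21 mean. Across the alternatives this adjusted p ran from 0.0421 to 0.297. It passed with quantile normalization (0.0421), with the robust form of the test (0.0465) and without the E21 mid-day library (change 1.16, limma adjusted p = 0.0485). Later steps were smaller, 0.33 ± 0.24 from P5 to P20 (limma adjusted p = 0.445) and 0.47 ± 0.24 from P20 to P40 (limma adjusted p = 0.808).

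Adra1b encodes the alpha-1B receptor, and its transcript had another course. Its E21 levels were 27.4 FPKM (mid-day) and 31.7 FPKM (mid-night), and its P5 levels 43.2 and 43.3 FPKM. In P20 glands 22.6 FPKM at mid-day stood against 43.3 FPKM at mid-night, and in P40 glands 14.0 against 27.9 FPKM. The P5 libraries were above those of E21. The P20 libraries spread so far that they overlapped both younger ages, and those of P40 overlapped E21 but not P5.

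Means of Adra1b were 29.5 ± 3.05 FPKM at E21, 43.3 ± 0.0441 FPKM at P5, 33.0 ± 14.6 FPKM at P20 and 20.9 ± 9.81 FPKM at P40 (SD, n = 2 libraries each). No step in age passed the test. The changes were 0.54 ± 0.27 from E21 to P5 (limma adjusted p = 0.210), -0.45 ± 0.27 from P5 to P20 (limma adjusted p = 0.341) and -0.64 ± 0.27 from P20 to P40 (limma adjusted p = 0.717). Over the whole span, P40 against E21, the change was -0.55 ± 0.27 (limma adjusted p = 0.132).

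Adra1a, the gene of the alpha-1A receptor, was near the detection limit until P40. It measured 0.0785 FPKM at mid-day at E21 and 0.0633 FPKM at mid-day at P5, and was listed at 0 at mid-night at both ages. It reached 0.246 FPKM at mid-day and 0.324 FPKM at mid-night at P20, then 2.72 and 1.85 FPKM at P40. Only the 2 P40 libraries were above 1 FPKM, and the mean there was 2.28 ± 0.618 FPKM (SD, n = 2 libraries).

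The P40 level of Adra1a was 11.1 times that of P20 at mid-day and 5.71 times at mid-night. P40 exceeded E21 by 1.65 ± 0.18 (SE, limma, adjusted p = 0.000458). Because Adra1a entered the test through its P40 libraries alone, it had to differ there, and this call adds nothing to the values themselves. The step from P20 to P40, 1.34 ± 0.18 (limma adjusted p = 0.132), did not pass. No transcript at all passed limma's test between these ages (0%), and 669 had an unadjusted p under 0.05.

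Adra1d, the alpha-1D receptor gene, was close to 0 throughout. Its highest value was 0.0824 FPKM at E21 mid-night, followed by 0.0596 FPKM at P5 mid-night and 0.0593 FPKM at E21 mid-day. The 3 remaining values above 0 lay between 0.0114 and 0.0283 FPKM, and it was listed at 0 in both later mid-night libraries, P20 and P40. It was not tested.

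Depth set how far these levels can be read. Reads were not counted here, but the FPKM added by 1 fragment to an olfactory receptor transcript spanning at most 1100 bp ranged from 0.0295 (P40 mid-night, the deepest library) to 0.0713 (P20 mid-day, the shallowest). Against that step Adrb1 lay 196 to 1399 steps high and Adra1b 317 to 1326 steps high. Adra1a was 73.9 and 62.6 steps high at P40 but at most 6.56 steps before, and Adra1d never exceeded 1.91 steps. A step is not scaled to the length of a receptor transcript, so steps are not fragments of Adra1d. Relative to depth, Adra1d was lowest above 0 at P5 mid-day. It was 5.45 times that level at E21 mid-night, 3.32 times at P5 mid-night and 3.04 times at E21 mid-day. At P20 and P40 mid-day it was 1.13 and 1.18 times that level. With values this low, its order over ages and times was not tested and is not read here.

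**Figure D1:**
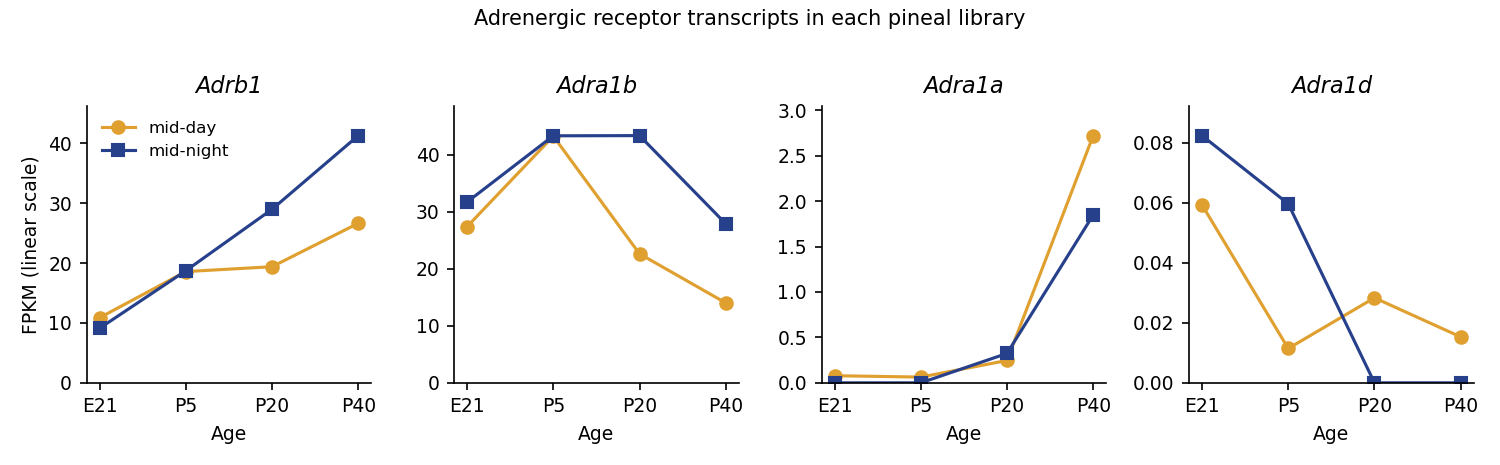
Levels of Adrb1, Adra1b, Adra1a and Adra1d in FPKM (linear y axes, each with its own scale) at E21, P5, P20 and P40, with 1 point for each library, circles for mid-day and squares for mid-night. Adrb1 climbs from 9.12 to 41.3 FPKM, Adra1b is highest at P5 and P20 mid-night, Adra1a leaves the floor at P40, and Adra1d stays under 0.1 FPKM.

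In the F test over the 4 ages, Adrb1 changed with age (limma adjusted p = 0.00652) and Adra1b did not pass (limma adjusted p = 0.0597), where 36.4% of all transcripts passed. Adra1a had an adjusted p of 0.00117 in limma, but it could be tested only because it was high at P40, so it is not counted here. For the same reason Adrb1 is the only receptor counted as higher at P40 than at E21. Of all transcripts 16.1% were higher and 26.8% lower in that comparison, 42.9% in all (1602 and 2674 transcripts, or 2175 and 2004 with each library centred on its median). From E21 to P5 0 of 3 receptors passed limma's test, against 15.1% of transcripts, with 1 receptor (Adrb1) under an unadjusted p of 0.05. From P5 to P20 0 of 3 passed, against 7.02%, and none had an unadjusted p under 0.05 in limma.

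The order of Adrb1 and Adra1b in FPKM turned over with age. Adra1b was above Adrb1 in all 6 libraries of E21, P5 and P20, and below it in both P40 libraries. The ratio of Adrb1 to Adra1b, in FPKM, was 0.397, 0.430, 0.858 and 1.90 at mid-day in order of age, and 0.288, 0.433, 0.669 and 1.48 at mid-night. It was higher at each age than at the one before at both times of day, and lower at mid-night than at mid-day except at P5. At E21 and P5 the libraries of Adra1b did not overlap those of Adrb1, but at P20 (22.6 to 43.3 against 19.4 to 29.0 FPKM) and at P40 (14.0 to 27.9 against 26.7 to 41.3 FPKM) they did. The ratio was not tested. Adrb1 is annotated over 1402 bp, and a wrong length for either gene would shift the ratio in every library. Which of the 2 receptors had more transcripts at a given age is therefore not settled by a ratio above or below 1. The rise of the ratio over ages compares each gene with itself.

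Adrb1 and Adra1b were ranked among all 16932 transcripts, many of which were under 1 FPKM. Adrb1 stood above 78.4% of transcripts at its lowest, E21 mid-night, and above 96.5% at its highest, P40 mid-night. Adra1b stood above 86.9% at P40 mid-day, its lowest, and above 97.4% at P20 mid-night. At E21 mid-night, where Adrb1 had rank 3665, 9328 transcripts were at 1 FPKM or more. At P40 mid-day, where Adra1b had rank 2226, there were 8844.

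**Figure D2:**
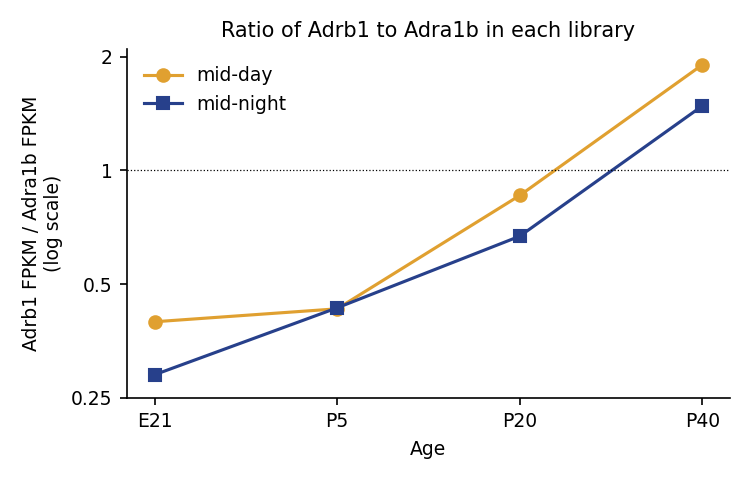
Ratio of Adrb1 to Adra1b in FPKM (log axis) by age, with 1 point for each library and the dashed line at equal levels. The ratio goes from 0.288 and 0.397 at E21 to 1.48 and 1.90 at P40, and both P40 points alone lie above the line.

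Further adrenergic receptor genes outside the list of 5 were low in every library and were not tested. Adra2c, the alpha-2C receptor gene, ranged from 0.0687 to 0.728 FPKM. Adra2b, the alpha-2B receptor gene, ranged from 0 to 0.120 FPKM. Adrb3, the beta-3 receptor gene, was listed at 0 in all 8 libraries. Among the receptor genes given here, Adrb1 and Adra1b were thus the only ones at or above 1 FPKM in every library, and Adra1a the only other to reach it.

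At P20 and P40 the mid-night values of both abundant receptors were above the mid-day values, and the difference passed the test for Adra1b but not for Adrb1. At P20, Adra1b was 1.92 times as high at mid-night as at mid-day, and at P40 1.99 times. For Adrb1 the corresponding ratios were 1.49 and 1.55. In P5 glands the mid-night level of Adrb1 was 1.01 times its mid-day level, and that of Adra1b differed by less still. In E21 glands the ratios were 1.16 for Adra1b and 0.838 for Adrb1. Adra1a was 1.32 times as high at mid-night at P20 and 0.679 times at P40.

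Taken over P20 and P40, Adra1b was higher at mid-night by 0.93 ± 0.17 (SE, limma, adjusted p = 0.0257), higher at 2 of 2 ages, and 2.73% of transcripts had a higher value. It was the 1 receptor of 3 to pass, where 4.39% of all transcripts passed and 2.8% were higher at night (279 higher and 158 lower, or 390 and 121 with each library centred on its median). The size of this difference ran from 0.80 to 1.04 over the 16 alternatives, but many of them cannot move it. Filters, forms of the test and leaving out an E21 or P5 library keep it at 0.93. Leaving out a P20 library leaves P40 alone, at 0.94, and leaving out a P40 library leaves P20 alone, at 0.91. Its call was lost with no filter on FPKM (limma adjusted p = 0.229) and without any single one of the 8 libraries. The weakest of these were without P20 mid-day (adjusted p = 0.214), P20 mid-night (0.201), P40 mid-day (0.193) and P40 mid-night (0.190), all from limma. Leaving out E21 mid-day or P5 mid-night gave 0.0558, and leaving out E21 mid-night or P5 mid-day gave 0.0554.

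Adrb1 did not pass over P20 and P40, at 0.58 ± 0.17 (SE, limma, adjusted p = 0.0988), although it too was higher at mid-night at 2 of 2 ages. With each library centred on its median it did, at 0.70 (limma adjusted p = 0.0436). The median difference of all transcripts between mid-night and mid-day over P20 and P40 was -0.11. Adra1a was at -0.15 ± 0.19 (limma adjusted p = 0.709).

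At E21 and P5 together, 0 of 3 receptors passed limma's test, and none had an unadjusted p under 0.05, where 0.0301% of transcripts passed. The differences between mid-night and mid-day were 0.10 ± 0.17 for Adra1b, -0.11 ± 0.17 for Adrb1 and -0.10 ± 0.19 for Adra1a (SE). Whether the night difference was larger in the older glands was tested directly. For Adra1b the older glands exceeded the younger by 0.82 ± 0.24 (limma adjusted p = 0.220) and for Adrb1 by 0.70 ± 0.23 (limma adjusted p = 0.268). Neither passed, nor did Adra1a at -0.05 ± 0.27 (limma adjusted p = 0.951), so 0 of 3 receptors and 0.753% of transcripts were called, with 2 receptors under an unadjusted p of 0.05. The night differences of the receptors are thus not shown to depend on age.

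Single ages have 1 library for each time and allow no test. On the log2(FPKM + 1) scale Adra1b differed by 0.91 at P20 and 0.94 at P40, and 2.89% and 3.33% of transcripts had a higher difference. Adrb1 differed by 0.56 at P20 and 0.61 at P40, with 6.31% and 6.39% of transcripts higher. At E21 and P5 77.4% and 60.0% of transcripts were higher than Adrb1, and 20.3% and 61.3% were higher than Adra1b. No receptor was 2-fold higher at night on this scale at any age, except that Adra1b at P20 reached 1.08 on the log2 scale, over 2-fold, with each library centred on its median. Without centring 0.783% of transcripts were 2-fold higher at E21, 1.55% at P5, 2.44% at P20 and 3.04% at P40.

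**Figure D3:**
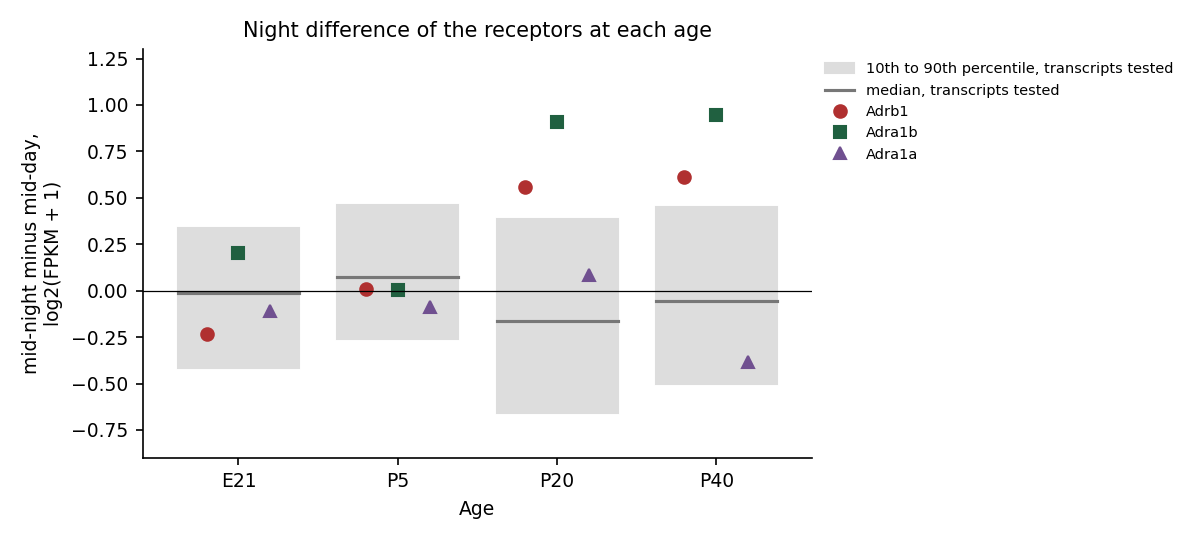
Mid-night minus mid-day difference on the log2(FPKM + 1) scale at each age for Adrb1, Adra1b and Adra1a (points), beside the median (line) and the 10th to 90th percentile (grey box) of the 9960 transcripts tested. At P20 and P40 Adra1b (0.91 and 0.94) and Adrb1 (0.56 and 0.61) lie above the grey box, and at E21 and P5 they lie within it.

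For Adra1b and Adrb1, the receptors at or above 1 FPKM in every library, the 250 bases before the annotated starts are shown. They are from RefSeq on build GRCr8, 5′ to 3′ in the direction of the gene, and the deposited values are on rn4, so no position is carried from one to the other. They were searched on both strands for TGACG, the core of the cyclic AMP response element. That core lies within the full element, which is TGACGTCA. Capitals mark the match. The Adrb1 stretch is chr1:265776853-265777102 on the plus strand and the Adra1b stretch is chr10:28814348-28814597 on the minus strand.
Adrb1: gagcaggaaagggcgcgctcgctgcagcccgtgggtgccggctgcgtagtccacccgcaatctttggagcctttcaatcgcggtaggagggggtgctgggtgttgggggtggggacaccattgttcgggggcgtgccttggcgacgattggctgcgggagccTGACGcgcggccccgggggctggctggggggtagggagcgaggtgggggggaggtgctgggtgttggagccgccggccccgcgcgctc
Adra1b: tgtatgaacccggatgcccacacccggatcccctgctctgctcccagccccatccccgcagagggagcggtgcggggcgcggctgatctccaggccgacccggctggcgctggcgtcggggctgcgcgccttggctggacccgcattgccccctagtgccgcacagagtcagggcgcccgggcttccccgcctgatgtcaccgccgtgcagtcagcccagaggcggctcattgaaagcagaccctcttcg
The Adrb1 stretch holds the core once, starting 88 bases before the start, and the Adra1b stretch holds none. Neither holds the full element. Among 33469 promoter stretches of this length 18.2% held the core and 1.59% the full element. Both stretches are rich in G and C, 72% for Adrb1 and 70.8% for Adra1b, against a median of 51.2%. Such a match describes letters, not binding, and Adra1a had no entry.

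On the deposited build rn4, the Adrb1 transcript (NM_012701) spans chr1:263025654-263027055, a stretch of 1402 bp. Adra1b (NM_016991) spans chr10:28889091-28946889, Adra1a (NM_017191) chr15:46173428-46263198 and Adra1d (NM_024483) chr3:119279973-119295985. Each value stands for 1 RefSeq transcript, so other transcripts of the same gene were not measured apart.

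The genes of the receptors' pathway were counted in 6 lists, and for P40 against E21 the counts stand beside 42.9% of all transcripts called and a median change of -0.18. G protein alpha subunits, which carry the signal from receptor to enzyme, had 0 higher and 1 lower of 7 tested, with a median of -0.33. The count of lower genes was 2 without P5 mid-day or P5 mid-night and 0 without E21 mid-day or P40 mid-day. With quantile normalization 1 was higher and 2 lower, with median centring 1 was higher and 1 lower, and with no filter none was called. The lower one was Gnai3, an inhibitory subunit, at 59.3 ± 11.8 FPKM at E21 and 29.0 ± 6.53 FPKM at P40 (SD, n = 2 libraries each; change -1.01 ± 0.24, limma adjusted p = 0.0125). Its call was lost without E21 mid-day (-0.61, limma adjusted p = 0.0813) and without P40 mid-day (-0.84, limma adjusted p = 0.104), and with no filter on FPKM (limma adjusted p = 0.0800). Gnaq, which couples alpha-1 receptors to phospholipase C, changed too little to pass (-0.58 ± 0.21, limma adjusted p = 0.0541), and Gnai2 was at -0.18 ± 0.17 (limma adjusted p = 0.438). Over P20 and P40, 1 of the 7 subunits tested was higher at mid-night and 0 lower, where 2.8% of all transcripts were higher. In the alternatives that keep all libraries this count was 0 or 1. Gnas, the Gs subunit downstream of Adrb1, is given as 2 transcripts that each span 1153 bp and lie between 0 and 2.74 FPKM, so its level was not read here.

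Among phospholipase C, protein kinase C and calcium release genes, 3 were higher and 3 lower of 10 tested, with a median of -0.15. The count of 6 became 3 without E21 mid-night, 3 without P40 mid-night and 4 without P40 mid-day. Prkca, the protein kinase C isoform alpha, rose from 5.13 ± 0.868 FPKM at E21 to 24.6 ± 5.03 FPKM at P40 (SD, n = 2 libraries each), a change of 2.06 ± 0.26 (limma adjusted p = 0.000852), and passed in all 17 alternatives. Itpr1, a calcium release channel opened by inositol trisphosphate, was at 14.0 ± 1.71 and 31.6 ± 15.5 FPKM at the same ages (1.04 ± 0.31, limma adjusted p = 0.0284). That call was lost without E21 mid-night (0.68, limma adjusted p = 0.184), P40 mid-day (adjusted p = 0.0700) or P40 mid-night (0.87, 0.171), and also with no filter (0.160) or age as the only term (0.126). Over P20 and P40, 1 of the 10 was higher at mid-night and 0 lower, where 2.8% of all transcripts were higher. This was again Itpr1, with 18.7 FPKM at mid-day against 54.5 FPKM at mid-night at P20, and 20.6 against 42.6 FPKM at P40 (1.25 ± 0.18, limma adjusted p = 0.0108). Without P20 mid-day or P20 mid-night this became 1.01 (limma adjusted p = 0.149 and 0.141), and with no filter the adjusted p was 0.248. Plcb4, a phospholipase C, did not pass for age (0.40 ± 0.16, limma adjusted p = 0.0757).

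On the cyclic AMP side, 2 of 6 adenylyl cyclases were higher (Adcy1 and Adcy2) and 2 lower, with a median of -0.24. Their count of 4 was 1 without P40 mid-night and 2 with no filter on FPKM. Adcy2, the most abundant, was 27.0 ± 2.81 FPKM at E21 and 53.5 ± 2.19 FPKM at P40 (SD, n = 2 libraries each; 0.97 ± 0.20, limma adjusted p = 0.00649), a call lost without P40 mid-night (0.85, limma adjusted p = 0.0723). Over P20 and P40, 1 of the 6 cyclases was lower at mid-night and 0 higher, where 158 of the 9960 transcripts were lower. This was Adcy1, with 1.27 FPKM at mid-night against 10.4 FPKM at mid-day at P20, and 5.28 against 17.8 FPKM at P40 (-1.96 ± 0.24, limma adjusted p = 0.00469). Without P20 mid-day or P20 mid-night it was -1.58 (limma adjusted p = 0.0529 and 0.0513), and with no filter the adjusted p was 0.262.

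Genes of protein kinase A, the cyclic AMP target, had 3 higher and 1 lower of 9, with a median of 0.56, and the count of 4 ran from 1 (without P40 mid-day or P40 mid-night) over 2 (without E21 mid-day or E21 mid-night) to 5 (without P20 mid-day or P20 mid-night). With no filter on FPKM it was 2. Besides the kinase subunits, the list held the kinase inhibitors Pkia, Pkib and Pkig and the transcription factor Creb1. Its counts and median are thus not those of the kinase alone. The regulatory subunit Prkar2b was at 29.4 ± 1.38 FPKM at E21 and 51.5 ± 8.45 FPKM at P40 (SD, n = 2 libraries each; 0.78 ± 0.23, limma adjusted p = 0.0268). Its call was lost without E21 mid-night (0.64, limma adjusted p = 0.141), P40 mid-day (0.92, 0.0711) or P40 mid-night (0.64, 0.185), and with no filter (0.106) or quantile normalization (0.0549). The catalytic subunit Prkaca was at 0.17 ± 0.21 (limma adjusted p = 0.548) and the regulatory subunit Prkar1a at -0.29 ± 0.18 (limma adjusted p = 0.210).

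Genes of receptor desensitisation, the kinases and arrestins that shut off active receptors, had 0 higher and 3 lower of 6, with a median of -0.35. With no filter, the 5 FPKM filter, quantile normalization, median centring or age as the only term 2 were lower. Without E21 mid-night, P40 mid-day or P40 mid-night 2 were lower. Grk5, a G protein-coupled receptor kinase, fell from 6.79 ± 0.337 FPKM at E21 to 2.45 ± 0.470 FPKM at P40 (SD, n = 2 libraries each), a change of -1.18 ± 0.18 (limma adjusted p = 0.00178) that passed in all 17 alternatives. Grk6, another such kinase, was also called lower (-0.68). Its call was lost with no filter, quantile normalization, median centring or age as the only term. Adrbk1, the kinase first described on the beta receptor, was 9.90 ± 0.913 and 9.89 ± 2.12 FPKM (-0.01 ± 0.17, limma adjusted p = 0.961).

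Genes of noradrenaline synthesis, transport and breakdown had 2 higher and 1 lower of 5, with a median of 0.39, and the count was 3 in each run without 1 library. Ddc, the decarboxylase that makes dopamine and also serotonin, rose from 18.5 ± 1.92 to 145 ± 63.9 FPKM (SD, n = 2 libraries each; 2.84 ± 0.30, limma adjusted p = 0.000357). Maob, an enzyme that breaks down amines, rose from 4.03 ± 0.213 to 25.7 ± 7.92 FPKM (2.38 ± 0.22, limma adjusted p = 0.000192). The related Maoa, named here after its values were seen, fell from 7.34 ± 1.23 to 1.91 ± 0.553 FPKM (-1.53 ± 0.22, limma adjusted p = 0.00152). These 3 calls held in all 17 alternatives. Genes that mark noradrenaline neurons were near 0: Th, which makes its precursor, reached at most 0.0293 FPKM, Dbh, which makes noradrenaline, at most 0.0388 FPKM, and Slc6a2, its transporter, at most 0.405 FPKM.

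**Figure D4:**
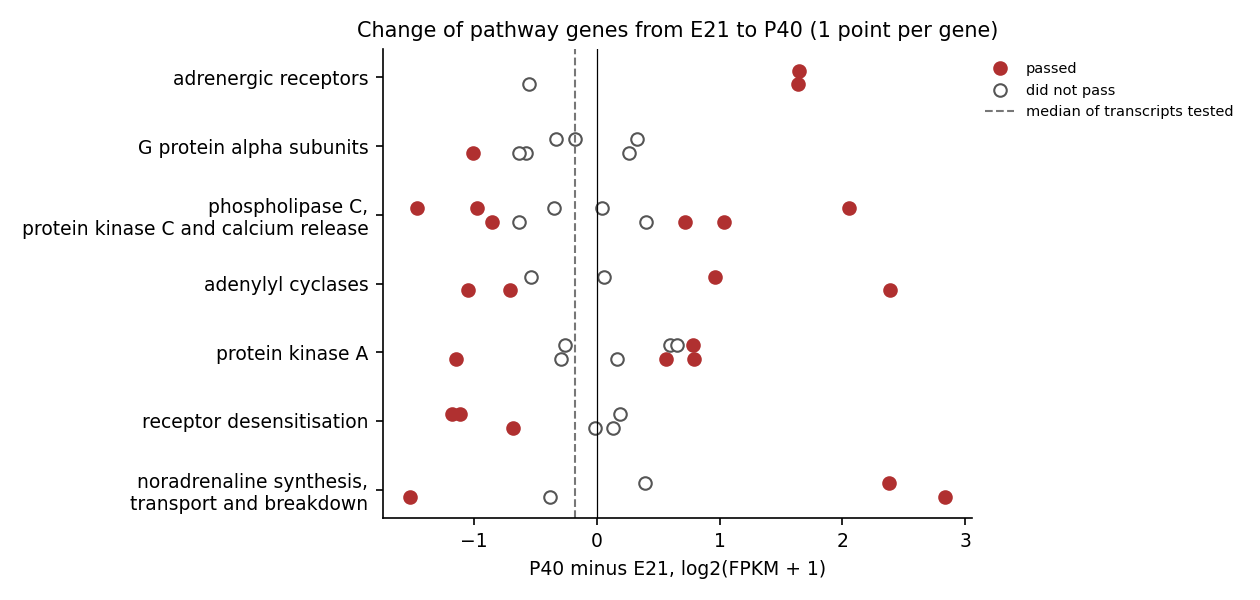
Change from E21 to P40 on the log2(FPKM + 1) scale for each tested receptor (top row, where the points of Adrb1 at 1.64 and Adra1a at 1.65 nearly coincide and Adra1a had to differ to be tested) and each tested gene of the 6 pathway lists, with filled red points for genes that passed the limma test, small vertical offsets that only separate points, and the dashed line at the median of all transcripts, -0.18. Genes that passed lie on both sides of the line in 4 of the 6 lists, and in the G protein and desensitisation lists they lie below it.

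Markers of several cell types differed between E21 and P40, when 16.1% of all transcripts were higher and 26.8% lower. Summed markers of pinealocytes, the melatonin-making cells, were 922 to 976 FPKM at E21 and 3499.7 to 4050.5 FPKM at P40, and 5 of 9 were higher at P40 than at E21 and 0 lower. The sums of endothelial markers were 36.3 to 45.4 FPKM at E21 and 12.0 to 15.8 FPKM at P40 (4 of 4 tested were lower, and Cldn5 was at 0 in all libraries). Smooth muscle markers, of cells that can also carry alpha-1 receptors, summed to 38.2 to 51.0 FPKM at E21 and 26.0 to 32.1 FPKM at P40 (2 of 4 lower). At P20 and P40 their sums were lower at mid-night, 17.8 and 26.0 FPKM, than at mid-day, 21.7 and 32.1 FPKM. Of the 4 tested, 0 passed limma's test for night at these ages. Endothelial and fibroblast sums were also lower at mid-night at both ages. Those of pinealocytes, brain neurons, choroid plexus and sympathetic neurons were higher, and those of astrocytes and microglia went both ways. Fibroblast markers summed to 629 to 867 FPKM at E21 and 72.8 to 101 FPKM at P40 (5 of 5 lower). Brain neuron markers summed to 367 to 379 FPKM at E21 and 968 to 1062 FPKM at P40 (3 of 4 tested higher). At P5 they already summed to 1014 to 1171 FPKM, and the pinealocyte sum there was 2664 to 3260 FPKM. Whether neurons or pinealocytes made these transcripts was not tested. Of this list Gad1 and Gad2 were under 1 FPKM in every library. Astrocyte markers summed to 32.1 to 36.3 FPKM at E21 and 51.8 to 55.5 FPKM at P40 (3 of 4 higher and 1 lower). The microglial sum was 13.4 to 17.5 FPKM at E21, 20.1 to 21.9 FPKM at P20 and 27.9 to 38.6 FPKM at P40 (3 of 4 higher and 1 lower against E21). Choroid plexus markers summed to 17743.5 FPKM in the P5 mid-night library and to at most 3120 FPKM in the others. Sympathetic neuron markers summed to 1.02 to 3.83 FPKM in all libraries, with Th, Dbh, Slc6a2, Phox2a and Prph under 1 FPKM in each. Only 1 of the 6 genes found of this list was tested, and the nerve supply itself was not measured. The part of these cells in the receptor values was not tested.

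Other transcripts were ranked by how closely their log2(FPKM + 1) followed a receptor over the 8 libraries. Among those closest to Adrb1 were Fzd4 (Pearson r = 0.988), Pip4k2c (0.985), Scg2 (0.985) and Prepl (0.984). Fzd4, a Wnt receptor, ran from 5.22 FPKM at E21 mid-day to 70.9 FPKM at P40 mid-night, and Scg2, a granule protein, was at 2.21 FPKM at E21 mid-day and at 152 FPKM at P40 mid-night. Closest to Adra1b were Cerk (r = 0.987), Ppp2r1b (0.974), Parvb (0.954), Bex4 (0.949) and Nelf (0.938). Cerk, a ceramide kinase, was at 11.7 FPKM at mid-day and 26.1 FPKM at mid-night at P20, and at 8.45 and 17.4 FPKM at P40. Closest to Adra1a were G3bp2 (r = 0.981), Igfbp5 (0.972), Ddx58 (0.966), Psme1 (0.962) and Atp8b2 (0.962). Ddx58, a sensor of viral RNA, was at most 2.75 FPKM before P40 and at 9.94 and 6.66 FPKM there. As Adra1a itself was at most 6.56 steps high in the 6 younger libraries, its ranking rests on the 2 P40 libraries. Of its 5 transcripts 3 were kept with a pseudocount of 0.1 and 2 with quantile normalization. Of the 5 closest to Adrb1 4 and 3 were kept, and of those closest to Adra1b 5 and 4. These correlations describe 8 libraries that share age and time of day, each with its own depth, and carry no test.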

How the data were processed

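Levels are the FPKM the authors deposited, 1 for each RefSeq transcript, made with TopHat 1.3.1 and Cufflinks 1.2.0 on genome build rn4, per the submitters' processing notes. Scaling between libraries beyond FPKM is not given in the sources used here. The values given for each sample equalled those of the series in 8 of 8 libraries. Without read counts, depth is known only relative to the deepest library (0.414 to 1), and no counting interval can be attached.

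Tests used log2(FPKM + 1), unscaled otherwise. A transcript entered if 2 libraries or more had 1 FPKM or more, which 9960 did. Two-sided tests came from limma 3.58.1 (R 4.3.3, eBayes, trend on), and p-values were adjusted over all 9960 by Benjamini-Hochberg and called under 0.05. Ages were compared in a model of age plus time of day (3 residual degrees of freedom, 4.82 prior). Night was compared in a model of age with separate night terms for the younger pair of ages (E21, P5) and the older pair (P20, P40), which leaves 2 residual degrees of freedom. Alternatives were pseudocounts of 0.1 and 5, no filter or a filter at 5 FPKM, quantile normalization, median centring, limma without trend or robust, age as the only term, and leaving out each library. Between 2 ages, filters, forms of the test, age as the only term and leaving out a library of another age cannot move the estimated change.

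The receptors, the 6 pathway lists and the 9 marker lists were chosen with earlier results of these data known. Named were all receptors, up to 3 genes of each list with the highest mean FPKM and, for each receptor, the 5 transcripts of highest Pearson r with at least 5 FPKM in 2 libraries. Maoa, Gnas, Th, Dbh and Slc6a2 were added after their values were seen. Some genes that this rule names are not reported here. Promoter stretches came from RefSeq on GRCr8, with 250 bases before each start.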

Additional observations from a re-analysis of the deposited data

How the results depend on the processing

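Leaving out each library in turn, Adrb1 stayed called with age (F test, limma adjusted p from 0.00917 to 0.0293) and for P40 against E21 (0.00222 to 0.0186), and no receptor was called for night at P20 and P40. The calls of Adra1a with age were fixed by the filter and are not read as stable. Directions that turned were all of uncalled values. The change of Adra1a from E21 to P5 became 0.019 with median centring and ran from -0.034 to 0.013 without 1 library (turning without P5 mid-day). The night difference of Adrb1 at E21 and P5 ran from -0.23 to 0.010 (turning without either E21 library), and that of Adra1a at P20 and P40 from -0.39 to 0.087 (turning without either P40 library). The difference of Adra1a between older and younger glands became 0.65 with a pseudocount of 0.1, 0.063 with quantile normalization and 0.093 with median centring, and ran from -0.29 to 0.19 without 1 library (turning without either P40 library). The age F test of Adrb1 was lost with no filter (limma adjusted p = 0.0907). With at least 5 FPKM required, Adra1a was not tested.

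Counts of transcripts called with age (3629) were 1454 with no filter, 2322 with the filter at 5 FPKM and 2369 to 3347 without 1 library. For P5 against E21 (1507) they were 380 with no filter and 484 to 1422 without 1 library. For P20 against P5 (699) they were 397 with a pseudocount of 5, 10 with no filter, 372 with the 5 FPKM filter and 50 to 725 without 1 library, and their split of 102 higher and 597 lower became 173 and 325 with median centring. For P40 against P20 (0) they were 1 with a pseudocount of 0.1, 1 with no filter and 0 without any 1 library. For P40 against E21 (4276) they were 2838 with the 5 FPKM filter and 2333 to 4253 without 1 library. For night at E21 and P5 (3) they were 0 with a pseudocount of 5, no filter, the 5 FPKM filter or median centring, 1 with quantile normalization or without trend, and 0 to 2 without 1 library. For night at P20 and P40 (437) they were 0 with no filter and 150 to 267 without 1 library. For the difference of the night effects (75) they were 37 with a pseudocount of 5, 0 with no filter and 6 to 64 without 1 library. Transcripts at least 2-fold apart between mid-night and mid-day numbered 202 at E21, 184 at P5, 514 at P20 and 436 at P40. With a pseudocount of 0.1 they were 456, 407, 1096 and 849, and with 5 they were 91, 59, 181 and 192. Causes were not tested, except that fewer transcripts are tested under the 5 FPKM filter. No paired analysis was possible because every age and time of day has a single pool, so replicate numbers pair nothing. Age and time of day enter the fits as terms instead. Depth limits Adra1a before P40 and Adra1d throughout.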
